A study of Mus musculus with 2 samples.

Results

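The genes examined here encode the core of the desmosome and were taken by name as *Dsg1a*, *Dsg2*, *Dsg3*, *Dsc2*, *Dsc3*, *Dsp*, *Jup*, *Pkp1*, *Pkp3* and *Perp*. These 10 genes have 15 of the 55679 probes used, and the probes carry 36405 distinct entries in the gene name column of the files. The rule uses gene names alone, but it was set with earlier results of these arrays known, and *Dsg3* is among the genes that the study lists as upregulated from them. RNA came from the incisor of wild-type mice and of *Sox21* KO mice, with 1 Agilent one-colour array for each genotype and no treatment. The labels give the age as postnatal day 0, the methods as day 1. Wild-type mice were C57BL/6J, whereas the strain of the *Sox21* KO mice and the number of animals behind each array are not given in the sources used here. The labels name the tissue only as incisor and the methods speak of tooth germs, which the study describes as holding epithelium and mesenchyme. Each sample thus pools the RNA of several tissues, although captions of the study speak of ameloblasts.

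Desmosomes are junctions that rivet neighbouring epithelial cells together and anchor the keratin filaments of each cell at its surface. Desmogleins (Dsg) and desmocollins (Dsc), cadherins that span the membrane, bind their partners on the adjacent cell. Inside the cell they hold plakoglobin (*Jup*) and plakophilins (Pkp), which connect them to desmoplakin (*Dsp*), the protein that grips the keratin filaments. *Perp* encodes a small tetraspan membrane protein needed for stable desmosomes in stratified epithelia. In the tooth, desmosomes are best known between the cells of the stratum intermedium and stellate reticulum, and in skin the desmoglein and desmocollin forms change as keratinocytes leave the basal layer.

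The probes of the plaque genes and of *Perp* are shown because each of these ratios rests on 1 or 2 oligonucleotides. Coordinates are those of the files (mm9), and letters in capitals mark a repeat of the dinucleotide ct.
Dsp, brighter probe, chr13:38290121-38290180, plus strand: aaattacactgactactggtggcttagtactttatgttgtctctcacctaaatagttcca
Dsp, dimmer probe, chr13:38285480-38286579, plus strand: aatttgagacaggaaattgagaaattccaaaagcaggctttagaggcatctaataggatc
Jup, chr11:100238038-100238097, minus strand: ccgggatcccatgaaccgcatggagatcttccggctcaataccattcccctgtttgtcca
Pkp1, chr1:137768027-137768086, minus strand: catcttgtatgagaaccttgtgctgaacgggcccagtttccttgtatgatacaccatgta
Pkp3, chr7:148276140-148276199, plus strand: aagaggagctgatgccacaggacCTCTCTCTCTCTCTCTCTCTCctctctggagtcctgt
Perp, chr10:18576697-18576756, plus strand: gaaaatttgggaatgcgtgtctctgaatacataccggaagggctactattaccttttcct
Each probe is 60 bases long. The dimmer *Dsp* probe spans 1100 bases of the genome, so that it crosses at least 1 intron, whereas the other 5 align without a gap. The *Pkp3* probe holds an uninterrupted ct repeat of 21 bases. A repeat of ct or ga at least as long occurs in 11 of all 55679 probes, or 0.0198%, and in no other measured probe of the 10 genes. The GC content of the 14 measured probes ran from 35.0% to 55.0%, with a median of 42.5% against 43.3% for all probes.

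The scanner software had subtracted background and written a processed signal for each spot. Each processed signal was divided by the 75th percentile of its array, 267.7 on the wild-type and 275.6 on the KO array, to give the normalized signal, and the log2 ratio is *Sox21* KO minus wild-type. Of all probes, 25945 were marked by the software as well above background on each of the arrays and are called measured, among them 14 of the 15 desmosome probes. With 1 array for each genotype, no test could be run and no difference has a replicate check. The error given with a ratio was propagated from the signal errors of the scanner software, lay between 0.20 and 0.30 for the desmosome probes, and does not cover differences between animals. *Sox21*, the targeted gene, had processed signals of 1362 on the wild-type and 659.1 on the KO array at its brighter probe, for a log2 ratio of -1.09 ± 0.20. Its dimmer probe gave -1.51 ± 0.22. Transcript of *Sox21* was thus lower but still well above background on the KO array. For its KO mice the study cites the same earlier report as for a reporter mouse with GFP knocked in at the *Sox21* locus. Which part of the gene the allele lacks is not given in the sources used here, so whether these probes lie within that part is not known. In these bulk samples, more cells of a type and more RNA per cell cannot be told apart.

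Among the desmogleins, *Dsg3* and *Dsg1a* were higher on the KO array and *Dsg2* was nearly level. *Dsg3*, the desmoglein of basal and oral keratinocytes and the target of antibodies in pemphigus vulgaris, was read by a pair of probes. The brighter had a processed signal of 142.7 (error 15.0) on the wild-type and 352.0 (error 35.5) on the KO array, which is 1.26 ± 0.21 as a log2 ratio. The dimmer went from 96.91 to 261.4, a log2 ratio of 1.39 ± 0.22. The probes of *Dsg3* therefore differed by 0.13, against a combined error of 0.31, and both placed the gene more than 2-fold higher, a call that both lost under the normal-exponential background correction, at 0.96 and 0.93. *Dsg1a*, which encodes a desmoglein of suprabasal layers, had signals of 325.1 and 587.7 and a log2 ratio of 0.81 ± 0.21. *Dsg2*, the desmoglein of simple epithelia and of the least differentiated cells, had 672.0 and 739.8 at its brighter probe, a log2 ratio of 0.10 ± 0.20. A second *Dsg2* probe gave 0.03 ± 0.21. The third, designed on a cDNA outside RefSeq, was not above background on either array, at 4.84 and 4.476, and has no ratio. The *Dsg2* ratios were within their scanner error of 0.

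The desmocollins, partners of the desmogleins in the same junction, split in the same way. *Dsc2*, the most widely expressed desmocollin, had a processed signal of 395.1 (error 39.9) on the wild-type and 930.2 (error 93.2) on the KO array. Its log2 ratio was 1.19 ± 0.21. *Dsc3*, the desmocollin of the basal layers of stratified epithelium, had 1086 and 1097 at its brighter probe, a log2 ratio of -0.03 ± 0.20. Its dimmer probe, whose coordinates run across 2118 bases and thus over an intron, went from 198.8 to 250.7, a log2 ratio of 0.29 ± 0.21. The *Dsc3* probes lay 0.32 apart, slightly more than their combined error of 0.29. *Dsc3* at its brighter probe had no stable sign, since the log2 ratio ran from -0.07 to 0.07 under the other scalings and the other background correction.

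**Figure D1:**
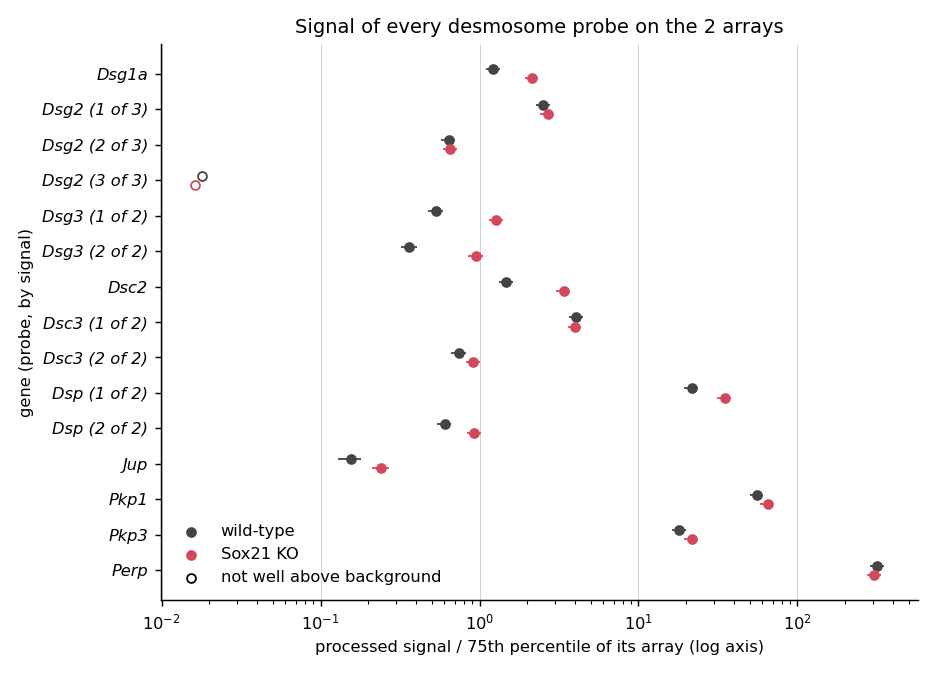
Normalized signal (each array scaled to its own 75th percentile, log axis) of each of the 15 desmosome probes on the wild-type array (dark) and the *Sox21* KO array (red); bars are the scanner error, and open circles, drawn without bars, are not well above background. Both *Dsg3* probes, *Dsc2* and *Dsg1a* show the widest gaps, whereas the bars of the 2 arrays overlap for the measured probes of *Dsg2*, *Dsc3*, *Pkp1*, *Pkp3* and *Perp*; levels of different probes are not comparable.

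All desmogleins and desmocollins of the mouse lie side by side in 1 cluster on chromosome 18, so position and ratio could be set next to each other. From the first to the last gene in mm9 coordinates, the brightest measured probes gave log2 ratios of -0.03 for *Dsc3*, 1.19 for *Dsc2*, 0.22 for *Dsg1c*, 0.81 for *Dsg1a*, 0.98 for *Dsg1b*, 1.26 for *Dsg3* and 0.10 for *Dsg2*. The genes at either end of the cluster thus had ratios near 0, and those well above 0 lay between them, together with *Dsg1c*, whose ratio was within its scanner error of 0.26. *Dsc1*, a desmocollin of the uppermost epidermal layers, had signals of 5.626 and 4.965, and *Dsg4*, the desmoglein of the hair shaft, had 4.973 and 4.469, none of them well above background. Within 2 Mb on either side, the array had 16 other entries, all beyond *Dsg2*, of which 8 were measured. Their log2 ratios ran from -0.44 for *Garem1* to 0.47 for *Trappc8*, with a median of 0.06, 4 above 0 and 4 below. In the cluster itself, 6 of 7 measured genes were above 0 and the median was 0.81. *Dsg1a*, *Dsg1b* and *Dsg1c* are close copies of each other, and how far their probes take up each other's transcripts was not tested.

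**Figure D2:**
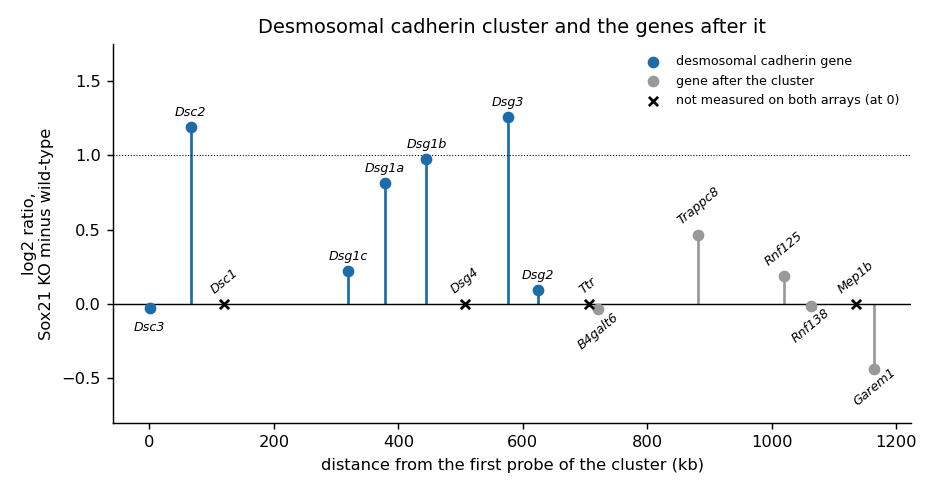
Log2 ratio (*Sox21* KO minus wild-type, y axis) of the brightest measured probe of each desmosomal cadherin gene (blue) and of the nearest genes with a symbol that follow the cluster (grey), against distance in kb from the first probe of the cluster; crosses at 0 are genes not measured on both arrays. *Dsc2* and *Dsg3* pass the dotted line at 2-fold, *Dsc3* and *Dsg2* at the ends stay near 0, and the measured genes after the cluster lie between -0.44 and 0.47.

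The plaque genes were all higher on the KO array, by less than 2-fold. Desmoplakin was read most often, since its brighter probe was spotted 10 times on each array and 9 of these spots remained after 1 was marked as an outlier. On the wild-type array the 9 signals of *Dsp* ran from 5555 to 5930 with a median of 5772. On the KO array they ran from 9109 to 10230 with a median of 9537. The lowest KO spot therefore exceeded the highest wild-type spot, and the log2 ratio was 0.69 ± 0.05 (SD over 9 spots), with a range from 0.61 to 0.77. These spots share the same RNA and count as 1 sample. The dimmer *Dsp* probe, elsewhere in the transcript, went from 161.5 to 256.0, a log2 ratio of 0.62 ± 0.21.

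Plakoglobin (*Jup*), which sits in desmosomes and in adherens junctions alike, had signals of 41.49 (error 6.96) and 66.25 (error 8.26), a log2 ratio of 0.63 ± 0.30. Its only probe was dim, since the lowest signals marked as well above background were 21.3 and 19.5, and under the normal-exponential background correction its log2 ratio was 0.27. *Pkp1*, the plakophilin of suprabasal cells that clusters desmoplakin at the membrane, went from 14860 to 17900, a log2 ratio of 0.23 ± 0.20. *Pkp3*, a plakophilin found in most layers of stratified epithelia, went from 4822 to 5944, a log2 ratio of 0.26 ± 0.20, as read by the repeat-bearing probe printed above. Both plakophilins exceeded their scanner error only narrowly. *Perp*, a target of p63 and p53, had 85250 on the wild-type and 83990 on the KO array. Its log2 ratio was -0.06 ± 0.20, within the scanner error, and it became 0.03 when arrays were scaled to their median.

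**Figure D3:**
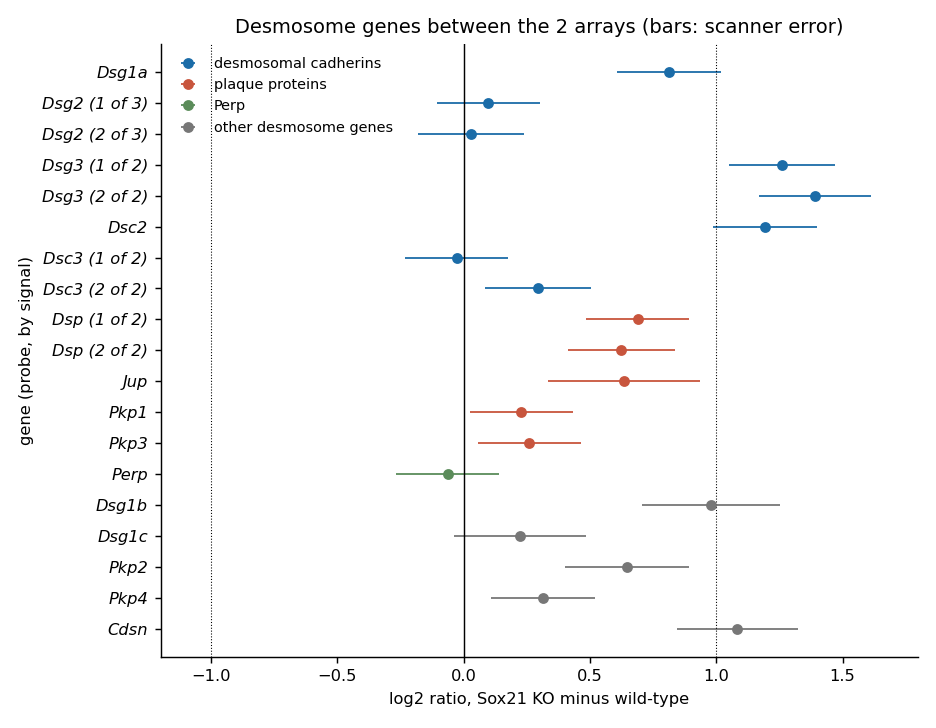
Log2 ratio (*Sox21* KO minus wild-type) of each measured desmosome probe, with bars for the scanner error, for desmosomal cadherins (blue), plaque proteins (red), *Perp* (green) and the other desmosome genes (grey); dotted lines mark 2-fold. Both *Dsg3* probes, *Dsc2* and *Cdsn* lie beyond 2-fold, and the bars of *Dsg2*, *Perp*, *Dsg1c* and the brighter *Dsc3* probe cross 0.

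Counted by gene at its brightest measured probe, 8 of the 10 desmosome genes were above 0 and 2 below, with a median log2 ratio of 0.45. Over all measured probes, 49.9% were above 0 and the median was 0.00, with the 5th percentile at -0.53 and the 95th at 0.47. Counted by probe, 3 of 14 were at least 2-fold higher, which belong to *Dsg3* and *Dsc2*, and 0 were at least 2-fold lower. Among all measured probes 0.632% were at least 2-fold higher and 0.794% at least 2-fold lower. At 1.5-fold, 7 of 14 desmosome probes were higher and 0 lower, against 3.03% and 3.87% of all measured probes. The 7 probes belong to *Dsg1a*, *Dsg3*, *Dsc2*, *Dsp* and *Jup*. Of the 14 ratios, 10 exceeded their scanner error and 7 exceeded it by a factor of 2. Under the normal-exponential correction, which shrinks the ratios of dim probes, *Dsc2* alone of the 10 genes remained past 2-fold, at 1.02. The same correction took the dimmer *Dsp* probe, at 0.41, and *Jup*, at 0.27, below 1.5-fold.

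**Figure D4:**
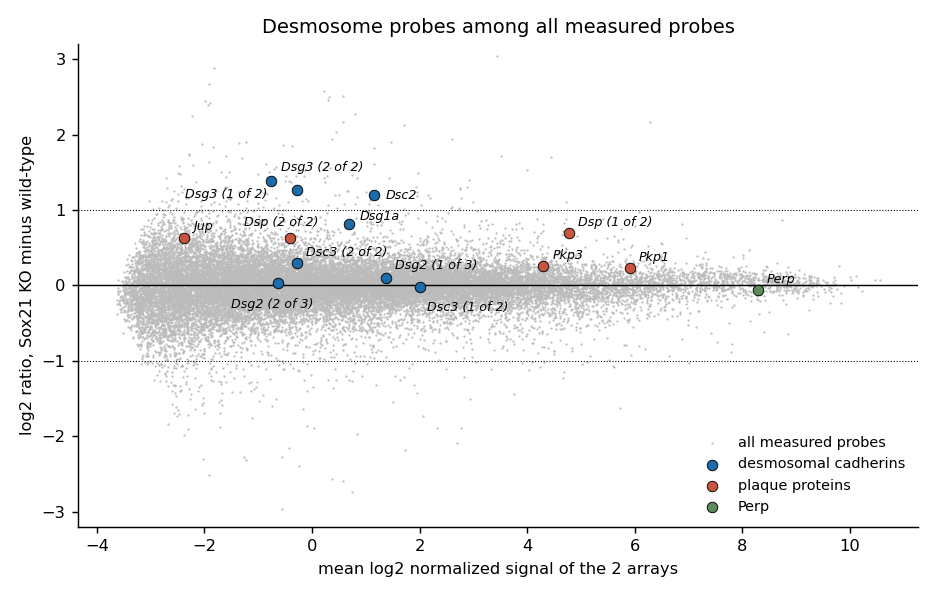
Log2 ratio (*Sox21* KO minus wild-type) against the mean log2 normalized signal for the 25945 measured probes (grey), with the 14 measured desmosome probes in colour; dotted lines mark 2-fold. The spread of all probes widens at low signal, where *Jup* lies, and *Dsg3* and *Dsc2* stand above the 2-fold line, which 0.632% of all measured probes pass.

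Of 7 other genes that belong to desmosomes, 5 were measured and all 5 were above 0, with a median log2 ratio of 0.65. *Cdsn*, which encodes corneodesmosin of the cornified layer, was the highest, with signals of 55.47 and 121.0 and a log2 ratio of 1.08 ± 0.24. *Dsg1b*, a second desmoglein 1 gene, had 42.76 and 86.69, a log2 ratio of 0.98 ± 0.27. *Pkp2*, the plakophilin of simple epithelia and heart, had 0.65 ± 0.25, and *Pkp4*, of cell contacts more widely, had 0.31 ± 0.21. *Dsg1c* gave 0.22 ± 0.26. Apart from *Pkp4*, these probes were dim, and without the requirement on background the median of the 7 was 0.31.

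Plakins and related proteins, which link desmosomes and keratins to the cell cortex, had a median of 0.39, with 4 of 6 above 0. *Eppk1* (epiplakin, a keratin-bundling protein) went from 1149 to 2898, a log2 ratio of 1.29, and its second probe gave 1.30. *Eppk1*, too, is on the study's list of upregulated genes. *Ppl* (periplakin) had 0.43 and *Plec* (plectin) 0.35, whereas *Evpl* (envoplakin), the partner of periplakin in the cornified envelope, had -0.19. *Kazn* had -0.12 at its brightest probe but 0.07 at its second. Scanner errors were not worked out for this list, so the small ratios give no sure direction. Adherens junction genes were close to 0 at their brightest probes. All 11 were measured, between -0.23 for *Afdn* and 0.13 for *Ctnnb1* (β-catenin), and their median was -0.02, or between -0.05 and 0.08 under the alternatives. E-cadherin (*Cdh1*) had signals of 4458 and 4298, a log2 ratio of -0.09. The difference between desmosome and adherens junction genes is a description of 2 arrays and was not tested. The probes of 2 adherens junction genes disagreed, with *Nectin3* at 0.03 at its brightest probe and up to 0.94 at the others, and *Nectin2* at -0.01 and 0.33. With the mean of each gene's probes the median of that list was -0.01.

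Markers of the epithelium that carries desmosomes had a median log2 ratio below those of *Dsg3*, *Dsc2* and *Dsg1a* and above those of *Dsg2* and the brighter *Dsc3* probe. The 9 epithelium genes, which include *Cdh1*, were all measured, 6 of them above 0, with a median log2 ratio of 0.18, and their summed normalized signal was 546.3 on the wild-type and 641.7 on the KO array. *Krt5* alone made up 424.7 and 504.4 of these sums, so they mostly give the level of its probe. *Krt5* and *Krt14*, the basal keratin pair, had 0.25 and 0.18, but a second *Krt5* probe gave 0.59. The probes of *Esrp1*, like *Esrp2* an epithelial splicing factor, gave -0.21 and 0.76, and with the mean of each gene's probes the median of the list was 0.27. *Krt18*, of simple epithelia, was the highest of that list at 0.92, and *Esrp2* the lowest at -0.22. Set against the epithelium median, *Dsg3* was higher by 1.08 on the log2 scale, *Dsc2* by 1.01, *Dsg1a* by 0.63, *Dsp* by 0.51 and *Jup* by 0.45, and *Pkp1* and *Pkp3* by 0.04 and 0.08. *Pkp1* at 0.23 and *Pkp3* at 0.26 were instead below the epithelium median when that was taken over the mean of each gene's probes, 0.27. *Jup* lay closer to the epithelium under the normal-exponential correction, where it had 0.27 and the epithelium median was 0.18. *Dsc3* and *Perp* had differences of -0.21 and -0.25 and *Dsg2* of -0.09.

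Most measured markers of skin and oral mucosa were higher on the KO array, as were most desmosome genes, among them *Dsg3*, *Dsc2*, *Dsg1a* and *Cdsn*. Of 9 cornified skin genes, 7 were measured and 6 of these were above 0, with a median of 0.34 and 3 at least 2-fold higher. With the mean of each gene's probes, which takes in a second *Krt10* probe, that median was 1.09. *Krt1*, the first suprabasal keratin, had 1.45, *Krtdap* 1.18 and *Lor* (loricrin) 1.15. The other measured genes of that list lay between -0.25 and 0.34 at their brightest measured probes. *Ivl* (involucrin) was not above background on either array. *Flg* (filaggrin) was above background on the KO array alone, where it was at least 5.18-fold higher, and *Casp14* had -0.25. The summed normalized signal of the list went from 12.94 to 22.97. Of 6 oral mucosa keratins, 3 were measured, with *Krt6b* at 1.39, *Krt6a* at 1.28 and *Krt13* at 0.56, and their sum with the unmeasured ones went from 18.35 to 37.14. Second probes of *Krt13* and *Krt10* gave higher values than the brightest, 1.94 and 1.84. *Krt4*, above background on the KO array alone, was at least 7.81-fold higher there, *Krt78* likewise had a bound of 2.07-fold, and *Krt76* was measured on neither. Such bounds set the KO signal against the larger of the wild-type signal and the lowest one marked as well above background there. The part of attached skin or mucosa in the desmosome ratios was not tested, and *Krt1*, *Krt6a*, *Krt6b*, *Krt10* and *Krt13* are on the study's list as well.

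The 10 mesenchyme genes lay between -0.12 and 0.39 with a median of 0.19, and 6 endothelial genes, from a cell type whose junctions also hold desmoplakin and plakoglobin, lay between -0.02 and 0.64 with a median of 0.22. The labelled tissue had its defining transcripts on both arrays, with *Amelx* (amelogenin) at 394200 and 428300 and *Ambn* (ameloblastin) at 265300 and 233100. Among the 7 ameloblast genes 5 were below 0, with a median of -0.62, from *Amtn* at -1.89 and *Klk4* at -1.05 to *Odam* at 0.63. *Amtn* and *Klk4* are among the genes that the study lists as downregulated.

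**Figure D5:**
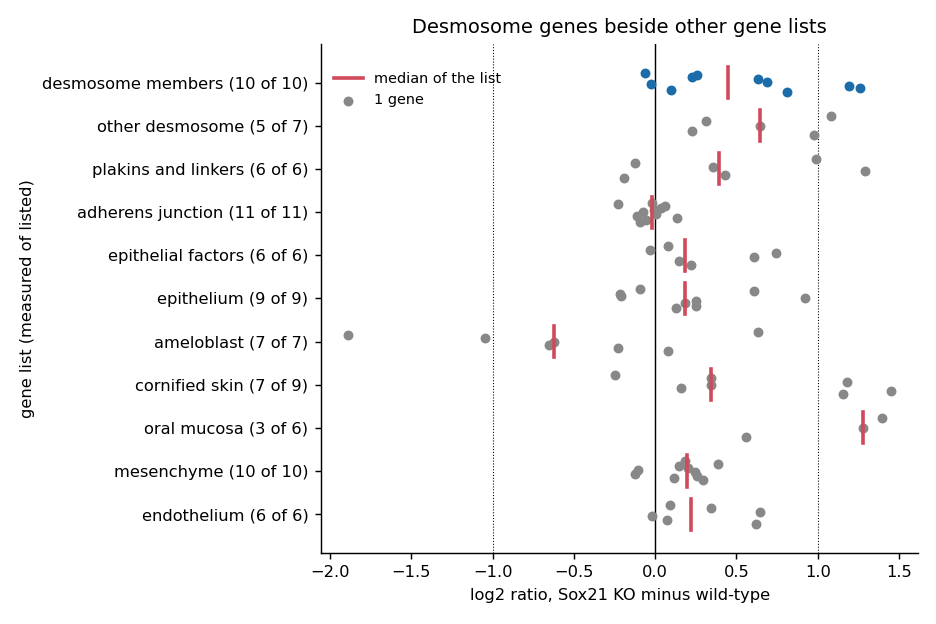
Log2 ratio (*Sox21* KO minus wild-type) of each measured gene at its brightest measured probe, 1 point a gene, for the 10 desmosome genes (blue) and 10 other lists (grey), with the median of each list as a red line and the number measured of those listed beside its name. The desmosome genes spread from -0.06 to 1.26, the adherens junction genes stay between -0.23 and 0.13, and ameloblast genes reach -1.89.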

How the data were processed

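RNA was labelled with Cy3 and hybridized to 1-colour arrays, per the labels, and read with Agilent Feature Extraction 10.7.3.1. The authors deposited, for each of 62976 spots, a processed signal intensity with its error, together with unprocessed spot and background intensities. The value table deposited beside these holds linear ratios of the processed signal to 1 divisor for each array. The divisors, 267.8 and 275.6, match the 75th percentiles, and this scaling was used here, with every value then put on the log2 scale. The GeneSpring filter on very low signals is stated without a threshold and was not applied.

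Spots other than controls were used, less 267 marked as outliers on either array, and spots of 1 probe were averaged. Each of the 10 members matched a RefSeq gene (GRCm38.p6) by accession. A gene took its brightest probe measured on both arrays. All probes of the members were shown, and of other lists the genes at least 2-fold apart, the extremes and up to 2 of the best known. The other desmosome genes, the entries beside the cadherin cluster, the ct repeat and genes with discordant probes were picked once their values were known. The members and lists were chosen with earlier results of these data known. No test was run, with 1 array per genotype. The number of arrays limits the precision, and 0 spots were saturated. The steps were tested on simulated data. Alternatives covered scaling, background correction (normexp, offset 50), the background filter, the probe of a gene and a 1.5-fold threshold. Python 3.11.15, numpy 2.4.6, pandas 2.3.3, matplotlib 3.10.9, R 4.3.3 and limma 3.58.1 were used.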

Additional observations from a re-analysis of the deposited data

How the results depend on the processing

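With 1 array per genotype nothing could be left out. No paired analysis was possible because each genotype has a single sample. Under the other scalings, the other background correction and the deposited value table, 12 of the 14 desmosome probes kept the sign of their log2 ratio, whereas the brighter *Dsc3* probe and *Perp* did not. Under the same scalings and correction, without the background filter and with the mean of a gene's probes, the median of the 10 desmosome genes lay between 0.29 and 0.54, and 8 to 10 of them were above 0. Scaling to the median of all spots moved all log2 ratios up, so that the median of all measured probes was 0.10. With that scaling 220 probes were at least 2-fold higher and 145 lower, so which direction had more calls depended on the scaling. Under the normal-exponential correction 74 probes were at least 2-fold higher and 65 lower (164 and 206 as reported), 1 desmosome gene was, and the other desmosome genes had a median of 0.32. Without the background filter 1576 probes were higher and 2466 lower, and the other desmosome genes had a median of 0.31. At 1.5-fold, 786 probes and 5 desmosome genes were higher and 1004 probes lower. With the mean of a gene's probes the cornified skin list had a median of 1.09, *Krt10* having probes at 0.34 and 1.84. The deposited value table gave the reported ratios. Between repeat spots the SD of the log2 ratio had a median of 0.08 and a 95th percentile of 0.28 over 261 probes, against a median scanner error of 0.21 for the desmosome probes, and neither covers animals.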

Other observations

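Transcription factors known for their work in stratified epithelia were read on the same arrays. *Grhl3* and *Grhl2*, of the grainyhead family, had log2 ratios of 0.74 and 0.61 (*Sox21* KO minus wild-type), the former with processed signals of 76.57 and 131.7 and the latter with 423.9 and 664.8. *Trp63*, an upstream factor of *Perp*, had 0.22 at its brightest probe, but its 4 measured probes ran from -0.68 to 0.22. *Klf4*, of the outer skin barrier, had -0.03. The 6 factors had a median of 0.18 at their brightest probes, which is also that of the epithelium list, and *Grhl2* is in both. With the mean of each gene's probes the medians parted, at 0.11 for the factors and 0.27 for the epithelium list.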
